A study of Mus musculus with 11 samples.

Results

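Islets from multiparous mice were compared with islets from virgin mice after insulin receptor blockade with S-961, a peptide antagonist that raises the demand for insulin. The comparison took 7 of the 11 bulk RNA-seq libraries of the series, chosen by their labels: 4 labelled multipara S-961 and 3 labelled virgin S-961. All were wild-type C57BL/6J females that entered the study at 9 weeks of age. Multipara mice had gone through 3 pregnancies and were studied 3 weeks after the last delivery, whereas virgin mice had gone through 0. Both groups received 2 injections of S-961 (100 nmol/kg) a day over 3 days. The comparison thus does not measure the response to S-961. It also cannot tell a group difference present without S-961 from a difference in the response to S-961. Another 2 virgin and 2 multipara libraries came from mice without S-961 and are used only where named. The labels do not say whether a library came from 1 animal or from a pool, and the tests measure only the spread between libraries.

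The pancreatic islet is a small organ of insulin-secreting beta cells, glucagon-secreting alpha cells, somatostatin-secreting delta cells and supporting vessels, fibroblasts and nerves. Beta cells rarely divide in the adult, and they expand in pregnancy under prolactin and placental lactogen and when insulin action fails. The comparison asked whether islets of multiparous mice meet such a demand as virgin islets do. In bulk RNA, fewer cells of a type and less RNA per cell cannot be told apart.

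Total counts ran from 28638659 to 31832273 per library. *Ins1* and *Ins2*, the insulin genes, took 13.2% to 20.7% of them. Markers of the surrounding exocrine pancreas were also present. The summed level of 24 acinar markers came to 8787.5, 11403 and 2792 CPM (counts divided by the library size, per 1e+06, and below, unless untreated libraries stand beside them, by the TMM-scaled library size) for the virgin libraries in the order of their replicate numbers, and to 21994, 18272, 17125 and 7299.9 CPM for the multipara libraries, while untreated libraries held 126 to 250 CPM. Acinar RNA was thus highest in multipara replicates 1 to 3, and its part in the other differences was not tested beyond the covariate fit given with the cell cycle genes.

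The 4 libraries labelled multipara were not alike. In multipara replicate 4 the 28 mitosis genes summed to 37.5 CPM, inside the 33.3 to 67.0 CPM of the virgin S-961 libraries and far from the 372 to 714 CPM of multipara replicates 1 to 3. The untreated libraries were at 36.9 and 30.1 CPM (virgin) and 163 and 21.5 CPM (multipara). Replicate 4 and replicates 1 to 3 thus differed in cell division genes under 1 label, and the files do not say which of them stands for multipara islets. No gene that marks past pregnancy was used to check the labels of the 7 libraries. *Matn2* and *Lrrc55*, which the authors' paper reports as higher in multipara islets after S-961, were lower in the libraries labelled multipara, with values given below. Without S-961, *Matn2* was higher in the libraries labelled multipara. The cause of this was not tested. The labels were taken as given, and every direction below, replicates 1 to 3 included, rests on them. An exchange of labels between replicates 1 to 3 of the groups would reverse the comparison of those libraries. It would leave replicate 4 under its label, so that the fold changes of all 7 libraries would not simply change sign. The genes described in full are given for each library and with and without replicate 4, and for the others the fold change is that of all 7 libraries.

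With all 7 libraries, edgeR's quasi-likelihood test called 0 of 16784 genes higher (0.0%) and 0 lower (0.0%) at an adjusted p of 0.05. The smallest adjusted p was 0.315. At an unadjusted p under 0.05, 1348 genes were higher and 282 lower, and DESeq2 called 358 higher and 11 lower. Without multipara replicate 4, edgeR called 447 of 16590 genes higher (2.69%) and 78 lower (0.47%). In 908 genes (5.41%) all 4 multipara libraries exceeded all 3 virgin libraries, and in 555 (3.31%) they were below. With replicate 4 set aside these counts were 2429 (14.5%) and 1641 (9.78%). Counts of list members that passed or did not overlap are to be read against these shares of all genes. Fold changes below are log2 values from the edgeR fit of all 7 libraries, with the standard error (SE), and adjusted p-values are edgeR's. Names of lists stand for what their genes are known for and not for what was tested.

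The position of replicate 4 was measured on the genes called without it, in whose choice it had no part. These genes were chosen for a gap between multipara replicates 1 to 3 and the virgin libraries. Any library left out of such a choice would tend to lie nearer the virgin mean and outside the range of replicates 1 to 3. How much of the position came from this was not measured. Of the 447 genes called higher, it lay inside the virgin range for 203, above it for 160 and below it for 84, and inside the range of the other multipara libraries for 7. Of the 78 called lower, it lay inside the virgin range for 34, below it for 28, above it for 16, and inside the range of the other multipara libraries for 0. On a scale where the virgin mean is 0 and the mean of multipara replicates 1 to 3 is 1, its median position was 0.082 for the genes called higher and 0.029 for those called lower, and it passed 0.5 for 27 and 2 genes. Over all 16590 genes it lay inside the virgin range for 61.4% and inside the range of the other multipara libraries for 52.8%. By gene group, its median was -0.071 over 27 mitosis genes and 0.027 over 22 replication genes, against 0.658 over 6 fibroblast and pericyte genes and 0.256 over 6 interferon-stimulated genes.

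**Figure D1:**
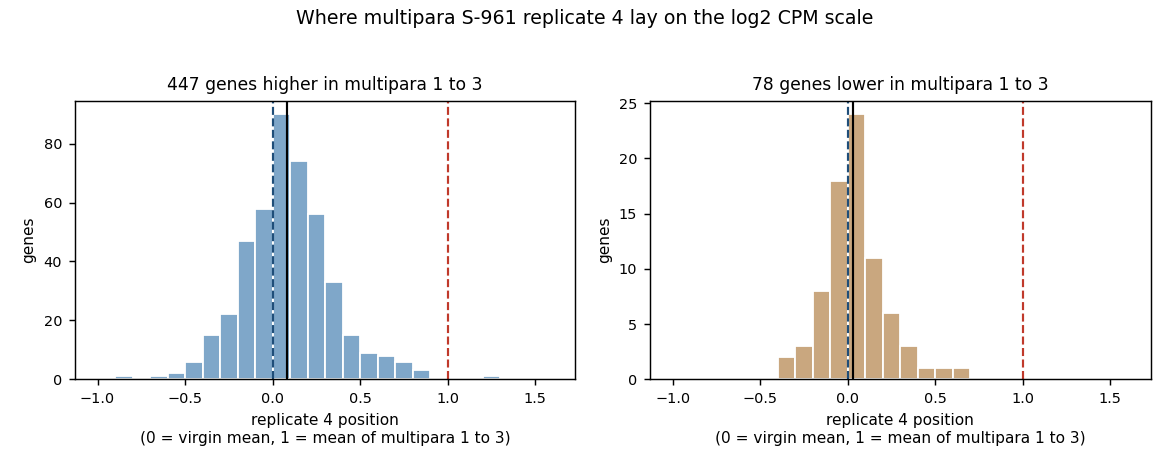
Histograms of the position of multipara S-961 replicate 4 (x axis, no unit) for the 447 genes called higher (left) and the 78 called lower (right) in the fit without it (y axis, number of genes). The dashed lines mark the virgin mean at 0 and the mean of multipara replicates 1 to 3 at 1, and the solid lines mark the medians, 0.082 and 0.029, both close to the virgin mean.

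Several extracellular matrix genes had higher levels in all 4 libraries labelled multipara, although 0 passed edgeR's test in all 7 libraries. *Col1a1*, the alpha 1 chain of type I collagen (chr11:94936224-94953042, plus strand, GRCm38), was at 8.93, 11.2 and 10.1 CPM in virgin islets and at 34.9, 26.8, 57.6 and 27.6 CPM in the 4 multipara libraries. The groups did not overlap, and replicate 4 stood with its own group. The log2 fold change was 1.87 (SE 0.28), with an adjusted p of 0.315 in all 7 libraries and 0.00945 without replicate 4. DESeq2 on all 7 libraries gave *Col1a1* an adjusted p of 3.9e-07. *Postn*, which encodes the matrix protein periostin, was at 4.03, 4.32 and 5.09 CPM against 11.3, 11.2, 13.3 and 8.77 CPM. Every multipara library was above every virgin library, with a log2 fold change of 1.31 (SE 0.20) and an adjusted p of 0.00787 without replicate 4. *Col1a2*, the other chain of type I collagen, and *Col3a1*, type III collagen, were chosen after their values were seen, with log2 fold changes of 1.36 (SE 0.25) and 1.7 (SE 0.34).

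The list of 15 fibroblast and pericyte markers had a positive fold change in 15 members, against 8478 of 16784 genes tested, and a median log2 fold change of 1.31, against 0.00 over all genes. In all 7 libraries 0 of the 15 members were called, and 10 were higher without overlap, against 5.41% of all genes. Without replicate 4, 6 were called higher, against 2.69% of all genes. *Pdgfra*, the receptor for platelet-derived growth factor on fibroblasts, was at 0.834, 0.714 and 0.524 CPM in virgin islets and at 3.55, 2.23, 8.4 and 1.57 CPM in the multipara libraries, again without overlap. *Fn1*, fibronectin, was at 3.51, 3.6 and 4.19 CPM against 11, 7.4, 57.7 and 6.93 CPM, and its log2 fold change of 2.46 (SE 0.77) was 1.17 without multipara replicate 3. The pericyte marker *Rgs5* was at 166, 127 and 136 CPM against 146, 143, 157 and 151 CPM, so that the groups overlapped and the fold change was 0.06 (SE 0.13). *Col16a1*, another collagen, was at 5.14, 4.86 and 4.75 CPM against 22.1, 27.8, 20.6 and 5.79 CPM, and *Fbln2*, fibulin 2, at 3.79, 3.3 and 1.8 CPM against 11.9, 10, 17.5 and 4.35 CPM. For both replicate 4 was just over the virgin libraries and far from the others of its group. Their log2 fold changes were 1.96 (SE 0.45) and 1.88 (SE 0.46), and both passed without replicate 4. The endothelial clotting factor gene *Vwf* gave 1.90 (SE 0.50) and did not pass. Over 14 endothelial markers the median was -0.00, with 7 members positive. A list of 44 collagen genes, added after values were seen, had 35 tested members with a median of 0.80, of which 29 were positive. In all 4 multipara libraries 15 were above the virgin libraries, against 5.41% of all genes. Without replicate 4, 8 passed as higher, against 2.69% of all genes. Replicate 4 was above the virgin range for 17 of the 35, inside it for 13 and below it for 5. *Cxcl12*, a chemokine made by stromal cells, was higher by 1.43 (SE 0.33), with levels of 4.31, 4.86 and 3.89 CPM against 12.1, 7.93, 18.9 and 8.03 CPM.

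Interferon-stimulated genes had positive fold changes as well, mostly at low levels, with 0 called in all 7 libraries. *Gbp2*, an interferon-induced guanylate-binding protein (chr3:142620602-142638008, plus strand), was at 1.81, 1.73 and 1.76 CPM in virgin islets and at 4.17, 5.2, 8.31 and 4.65 CPM in the multipara libraries. All 4 multipara libraries were above the virgin libraries, which lay within 0.1 CPM of each other. The log2 fold change was 1.66 (SE 0.29), and the adjusted p without replicate 4 was 0.0227. *Isg15*, a ubiquitin-like protein attached to others after interferon, was at 0.382, 0.850 and 0.412 CPM against 1.37, 2.93, 1.5 and 1.51 CPM. The groups were apart, with a log2 fold change of 1.73 (SE 0.46), but the adjusted p without replicate 4 was 0.106. *Irf7*, the factor that amplifies type I interferon, was at 4.24, 4.76 and 3.59 CPM against 7.74, 10.4, 7.70 and 5.22 CPM, and its adjusted p without replicate 4 was 0.0454. *Tap1*, which loads peptides on MHC class I, gave 0.43 (SE 0.14), without overlap. Without S-961, the 21 genes of the list summed to 151 and 135 CPM of the unscaled library in the virgin libraries. In the multipara libraries they summed to 546 and 126 CPM. On that scale *Gbp2* was at 5.15 and 3.27 CPM against 84.6 and 3.04 CPM. Libraries of 1 label thus differed widely there too, and the cause was not tested.

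Of the 21 interferon-stimulated genes, 21 had a positive fold change, with a median of 0.81 and 1.01 without replicate 4. In the fit without replicate 4, 6 passed the test, against 2.69% of all genes. The groups did not overlap for 8, against 5.41% of all genes. In the same direction, 11 of 11 tested cytokine, chemokine and NF-kappaB target genes were positive, with a median of 1.15, and 1 passed without replicate 4. That gene was *Cxcl10*, a chemokine that draws T cells, at 1.08, 0.306 and 0.786 CPM against 6.78, 11.9, 4.0 and 1.47 CPM, with a log2 fold change of 3.06 (SE 0.72) and an adjusted p of 0.0159 without replicate 4. *Icam1*, an adhesion molecule for leukocytes, was at 1.46, 1.5 and 2.51 CPM against 4.11, 3.6, 8.55 and 4.08 CPM. *Nfkbia*, the NF-kappaB inhibitor, was at 42.7, 42.7 and 47.2 CPM against 64.3, 66.8, 104 and 48.2 CPM. Both had groups that did not overlap, and neither passed the test. For the immune cells themselves, 15 macrophage markers had a median of 0.05 with 9 positive, 6 MHC class II genes had a median of 0.00, and 13 tested lymphocyte markers had a median of 0.31 with 0 called.

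The sequence before 2 of these genes is shown because it carries letters bound by interferon-activated factors. Each is the 150 bases before the start that RefSeq gives (GRCm38.p6), written 5′ to 3′ on the gene's strand, and capitals mark the core of the interferon response element, GAAA repeated with any 2 bases between, on either strand. The *Gbp2* window lies at chr3:142620513-142620662 (plus strand) and that of *Isg15* at chr4:156200819-156200968 (minus strand).
Gbp2: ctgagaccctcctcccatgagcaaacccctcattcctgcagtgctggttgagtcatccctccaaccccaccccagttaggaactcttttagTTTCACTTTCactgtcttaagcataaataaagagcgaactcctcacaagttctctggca
Isg15: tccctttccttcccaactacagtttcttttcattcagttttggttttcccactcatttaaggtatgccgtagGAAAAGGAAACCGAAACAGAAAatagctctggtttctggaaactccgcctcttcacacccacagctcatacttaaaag
The run in *Isg15* holds 3 overlapping copies. These letters stood in 3.5% of 27025 promoters of 250 bases before to 50 after the start. Only 15 of the 21 list members (71.4%) had a promoter sequence, so that a share over the list is void, and both genes were picked for holding the letters.

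Cell cycle genes were many-fold higher in the libraries labelled multipara replicates 1 to 3 than in those labelled virgin, and replicate 4 did not share this. This direction is that of the labels as given. The authors' paper reports the reverse, with cell cycle genes lower in multipara islets after S-961. It also reports a smaller share of beta cells with Ki67 protein for multipara than for virgin mice after S-961. That staining was done in the pancreas and in transplanted islets, and it counts beta cells, whereas the values here are RNA of whole islets. *Bub1*, a kinase of the spindle checkpoint (chr2:127801122-127831865, minus strand), was at 0.382, 0.306 and 0.187 CPM in virgin islets, at 9.3, 9.1 and 6.74 CPM in the first 3 multipara libraries and at 0.402 CPM in replicate 4. The first 3 multipara libraries stood far above, and replicate 4 was just over the virgin libraries. The log2 fold change was 4.43 (SE 0.95) and 4.82 (SE 0.33) without replicate 4, where the adjusted p was 0.00295. *Mki67*, the usual marker of dividing cells, was at 3.86, 15.6 and 3.52 CPM against 108, 75, 50.9 and 4.45 CPM. Here replicate 4 was inside the virgin range, and virgin replicate 2 was the highest of its group.

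Of the 28 mitosis genes, 28 had a positive fold change, with a median of 3.27. Without replicate 4, 27 of 28 passed the test, against 2.69% of all genes. In all 7 libraries the groups did not overlap for only 2, *Bub1* and the kinetochore gene *Cenpf*, against 5.41% of all genes. Of 28 replication genes, 22 passed without replicate 4, against 2.69% of all genes, and 6 did not overlap, against 5.41%. Their median was 1.83. *Lig1*, the ligase that joins newly made DNA, was at 5.67, 6.32 and 5.69 CPM against 32.9, 37.8, 18.4 and 7.36 CPM. *Tk1* and *Mcm6*, which serve thymidine supply and the replicative helicase, gave 2.0 (SE 0.48) and 2.16 (SE 0.55), and in all 3 genes replicate 4 was slightly above the virgin libraries. Of 13 repair genes, 12 passed without replicate 4, against 2.69% of all genes. *Stmn1*, a microtubule regulator and the rule's highest gene, was at 2.82, 4.66 and 2.81 CPM against 58.6, 70.4, 36.8 and 4.82 CPM.

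The G1 genes split by member. Of 16 G1 cyclins, kinases and E2F factors, 4 passed without replicate 4, against 2.69% of all genes. Among them were *E2f8* and *Cdk2*, with log2 fold changes of 3.65 (SE 0.95) and 1.41 (SE 0.37) in all 7 libraries. *Ccnd2*, the main D-type cyclin of beta cells, was at 794, 762 and 616 CPM against 673, 492, 651 and 750 CPM, with overlapping groups. *Cdkn1a*, the inhibitor p21, was at 88.1, 86.7 and 79.6 CPM against 66.4, 62.7, 30.9 and 75.6 CPM. Its multipara libraries were all below the virgin ones, with a log2 fold change of -0.53 (SE 0.26) that did not pass the test. *Cdkn2c*, the inhibitor p18, gave 0.94 (SE 0.34), with replicate 4 at 15 CPM inside the virgin range of 13.1 to 15.8 CPM.

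With the acinar score of each library as a covariate, the median log2 fold change went from 3.27 to 1.46 for mitosis and from 1.83 to 0.78 for replication. It went from 0.81 to 0.42 for the interferon-stimulated genes and from 1.31 to 1.3 for the fibroblast and pericyte markers. The score was 8.21, 8.02 and 7.75 in multipara replicates 1 to 3, 6.74 in replicate 4 and 5.48 to 7.32 in virgin libraries. The fit thus cannot tell acinar RNA apart from whatever else sets replicates 1 to 3 apart from the other libraries. In that fit 0 genes were called.

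The mitosis promoters are shown because the members had fold changes of one sign. Capitals mark CCAAT, which NF-Y binds, and TTTGAA or TTCGAA, the letters of the cell cycle homology region, on either strand, in the 150 bases before the RefSeq start. The windows are chr2:127831860-127832009 for *Bub1* and chr7:135716380-135716529 for *Mki67*, both on the minus strand.
Bub1: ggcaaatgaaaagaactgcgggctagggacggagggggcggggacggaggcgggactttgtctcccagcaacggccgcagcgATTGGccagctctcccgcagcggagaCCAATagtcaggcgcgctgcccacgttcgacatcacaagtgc
Mki67: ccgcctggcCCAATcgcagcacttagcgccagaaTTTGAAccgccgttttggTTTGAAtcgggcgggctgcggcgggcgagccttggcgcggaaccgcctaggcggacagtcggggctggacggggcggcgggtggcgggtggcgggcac
RefSeq promoters were at hand for 23 of the 28 mitosis genes (82.1%). Counts were made over 250 bases before to 50 after the start, which is longer than the printed windows. CCAAT stood in 19 of them (82.6%) and in 37.9% of all 27025 promoters, and TTTGAA or TTCGAA in 17 (73.9%) and in 19.4%. These are counts of letters and not of bound sites. The TTCGAA counted for *Bub1* lies after the start, outside its printed window.

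**Figure D2:**
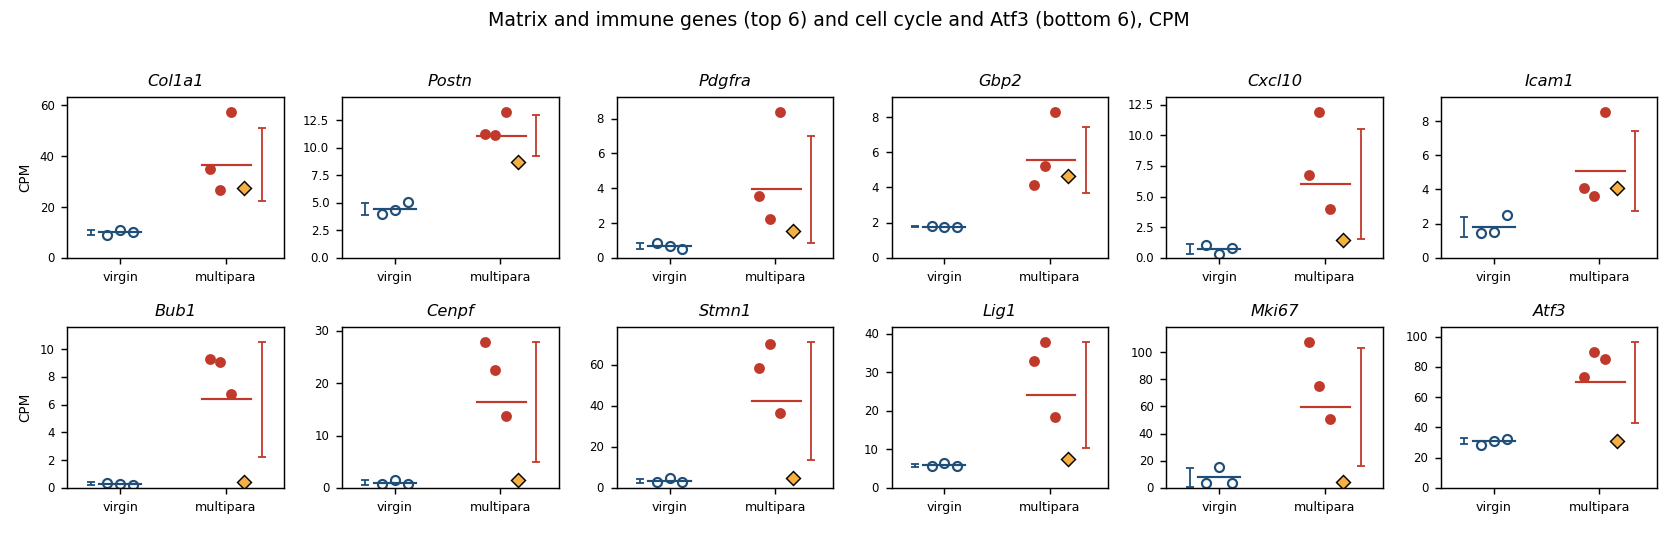
CPM (y axis, linear from 0) of 12 genes in virgin (open circles) and multipara S-961 libraries (filled circles, replicates 1 to 3; diamond, replicate 4), with the group mean over all its libraries as a horizontal line and its SD as the bar at the side. In the matrix and immune genes of the top row replicate 4 is above the virgin libraries, as for Col1a1 at 27.6 CPM, whereas in the bottom row it lies at or just above them, as for Mki67 at 4.45 CPM.

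Of 7 alpha-cell markers, 7 had a positive fold change. In all 7 libraries 0 passed the test, and without replicate 4 1 passed as higher, against 2.69% of all genes. *Gcg*, the glucagon gene (chr2:62474530-62483650, minus strand), was at 14044, 14851 and 15448 CPM in virgin islets and at 21286, 24764, 21380 and 16446 CPM in the 4 multipara libraries. The groups did not overlap, and replicate 4 was the nearest to the virgin libraries. The log2 fold change was 0.50 (SE 0.18), with an adjusted p of 0.389 and of 0.0866 without replicate 4. The alpha-cell factors *Irx1*, at 10.5, 9.76 and 8.79 CPM against 13.8, 15.4, 13.3 and 14.3 CPM, and *Irx2*, at 15.6, 18.2 and 13.1 CPM against 23.9, 21.5, 22 and 20.5 CPM, did not overlap either. For these factors replicate 4 lay with the other multipara libraries. The median over the 7 was 0.51, and 5 were above in all 4 multipara libraries, against 5.41% of all genes. The 1 that passed was *Gc*, the gene of vitamin D-binding protein, named after its values were seen, for which replicate 4 was inside the virgin range.

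Of the other hormones, *Pyy*, peptide YY, was above the virgin libraries in all 4 multipara libraries, with a log2 fold change of 0.49 (SE 0.19). Over 5 delta-cell markers, all positive, the median was 0.49. *Sst*, somatostatin, was at 2101, 2106 and 3088 CPM against 3167, 3860, 2598 and 2161 CPM, and *Ppy*, pancreatic polypeptide, gave 0.54 (SE 0.25), both with overlapping groups. *Ins2* was at 107066, 109588 and 157162 CPM against 89859, 131798, 80393 and 113452 CPM, and *Ins1* at 44720, 46229 and 66436 CPM against 40659, 51891, 38874 and 50029 CPM. The insulin genes overlapped, with log2 fold changes of -0.26 (SE 0.23) and -0.21 (SE 0.20). *Iapp*, the amyloid peptide secreted with insulin, gave -0.08 (SE 0.24). *Insr*, the receptor that S-961 blocks, was at 78.7, 66.7 and 60.3 CPM against 57.6, 42.6, 76.9 and 70.5 CPM, also overlapping.

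Genes of the mature beta cell differed little as groups, while single members stood out. Over 17 tested beta-cell factors the median was 0.06, over 13 maturity genes -0.04, over 15 granule genes 0.01 and over 16 exocytosis genes 0.04. *Mafa*, a factor of mature beta cells, was at 638, 807 and 921 CPM in virgin islets and at 376, 509, 495 and 712 CPM in the multipara libraries. Multipara replicates 1 to 3 were below the virgin range and replicate 4 inside it. The log2 fold change was -0.59 (SE 0.22), with an adjusted p of 0.0803 without replicate 4. Without S-961, *Mafa* was at 173 and 146 CPM of the unscaled library in the virgin and at 185 and 194 CPM in the multipara libraries. These levels were below those of every S-961 library. *G6pc2*, the islet glucose-6-phosphatase that sets the glucose threshold, was at 7958, 7992 and 9247 CPM against 5650, 6845, 3035 and 7903 CPM, without overlap although replicate 4 was only just below. *Trpm5*, a cation channel of stimulated beta cells, gave -0.52 (SE 0.24) with replicate 4 inside the virgin range.

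*Pdx1*, the master factor of beta-cell identity, was at 113, 125 and 108 CPM against 129, 108, 142 and 112 CPM. *Slc2a2*, the glucose transporter, and *Ucn3*, a late maturity marker, gave 0.10 (SE 0.26) and -0.05 (SE 0.17), and their groups overlapped. *Neurog3*, the factor of endocrine progenitors, was low in both groups, at 1.6, 2.11 and 2.13 CPM against 3.89, 3.50, 3.94 and 2.68 CPM, without overlap. In exocytosis, *Cplx1*, a complexin, was at 0.765, 0.782 and 0.225 CPM against 3.11, 3.23, 2.83 and 1.0 CPM, and passed without replicate 4 with an adjusted p of 0.0332. *Rab3a*, a vesicle GTPase, was lower without overlap, with a log2 fold change of -0.43 (SE 0.19). All 12 genes usually kept low in mature beta cells were positive, with a median of 0.57, but *Pdgfra* and *Cxcl12* of this list are also stromal genes.

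Of 12 genes known to be raised in pregnant islets, 4 passed the test as lower in the libraries labelled multipara without replicate 4, and 0 passed in all 7 libraries. This direction, too, rests on the labels as given. The same paper reports *Matn2* and *Lrrc55* as higher in multipara islets after S-961. *Matn2*, a matrilin of the matrix (chr15:34306677-34436273, plus strand), was at 148, 162 and 172 CPM in virgin islets, at 47.8, 67.8 and 31.5 CPM in the first 3 multipara libraries and at 130 CPM in replicate 4. All 4 were below the virgin libraries, and replicate 4 was close to them. The log2 fold change was -1.21 (SE 0.40), and -1.71 (SE 0.26) without replicate 4, where the adjusted p was 0.0128. *Neb*, a large actin-binding protein, was at 12.4, 16.2 and 9.65 CPM against 4.04, 6.06, 3.52 and 8.93 CPM, with an adjusted p of 0.0289 without replicate 4. *Tnfrsf11b*, the decoy receptor osteoprotegerin, and *Lrrc55*, a potassium channel subunit, were named after their values were seen. *Tnfrsf11b* was at 55.3, 53.8 and 47.4 CPM against 14.7, 18.1, 10.6 and 52.5 CPM, so that replicate 4 was inside the virgin range. *Lrrc55* was at 8.48, 7.68 and 6.17 CPM against 0.684, 0.367, 2.29 and 5.02 CPM, so that it was below.

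*Matn2*, *Neb*, *Tnfrsf11b* and *Lrrc55* were the 4 that passed, against 0.47% of all genes called lower without replicate 4. For 3 of the 12 all multipara libraries were below all virgin libraries, against 3.31% of all genes. The list median was -0.27, with 3 members positive. Replicate 4 was below the virgin range for 8 of the 12, against 19.8% of all 16590 genes, and inside it for 4. *Prlr*, the prolactin receptor, was not among those that passed, at 488, 463 and 356 CPM against 634, 557, 393 and 378 CPM. Without S-961, *Matn2* was at 17.4 and 15.7 CPM of the unscaled library in the virgin and at 43.4 and 36 in the multipara libraries, below all virgin S-961 libraries.

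Further genes lower in all 4 multipara libraries had other functions. *Csf2rb*, the shared beta chain of the receptors for GM-CSF, interleukin 3 and interleukin 5 (chr15:78325752-78353847, plus strand), was at 30.3, 33.0 and 56.0 CPM against 2.86, 3.03, 8.94 and 24.7 CPM. *Crispld2*, a secreted protein (chr8:119992438-120052793, plus strand), was at 69.7, 52.6 and 73.6 CPM against 11.1, 11, 6.26 and 41.2 CPM. The first 3 multipara libraries were several-fold below the virgin ones and replicate 4 lay between. The log2 fold changes were -2.01 (SE 0.68) and -1.91 (SE 0.55), and the adjusted p without replicate 4 was 0.0150 and 0.00295. Without S-961, *Csf2rb* was at 3.32 and 2.21 CPM of the unscaled library in the virgin and at 18.7 and 1.5 CPM in the multipara libraries. *Crispld2* was at 1.64 and 2.25 CPM against 2.45 and 0.953 CPM there, below every S-961 library. *Kcnf1*, a silent potassium channel subunit, the neuroendocrine repressor *Scrt1*, the ephrin receptor *Ephb6*, the glutathione transferase *Gsto1* and *Rtl10* gave log2 fold changes of -1.18, -0.98, -1.08, -0.96 and -1.05, and all 5 passed without replicate 4.

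**Figure D3:**
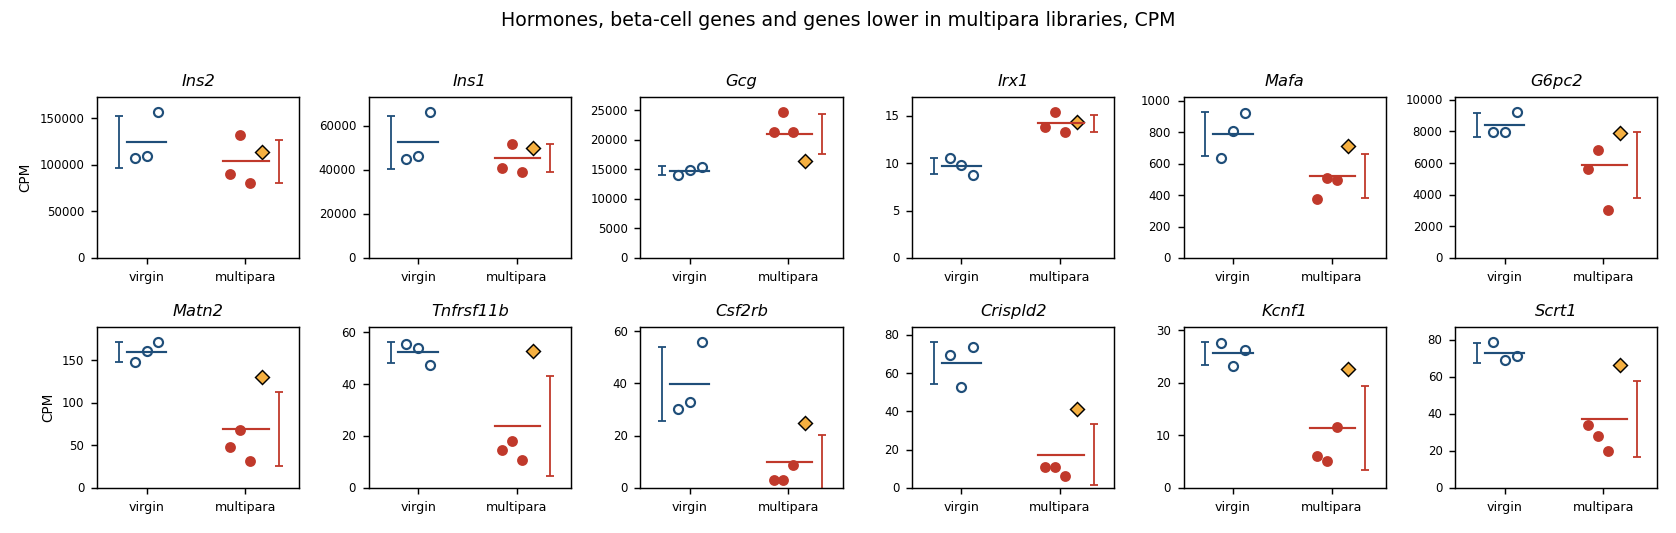
CPM (y axis, linear from 0) of hormone and beta-cell genes (top) and of genes lower in the multipara libraries (bottom), drawn as virgin (open circles) and multipara S-961 libraries (filled circles, replicates 1 to 3; diamond, replicate 4), with the group mean as a line and the SD as the bar at the side, which is cut off at 0. The insulin genes overlap, whereas Gcg is higher and Matn2 lower in all 4 multipara libraries.

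Nerve genes were higher in multipara replicates 1 to 3. A list of 18 autonomic neuron genes was added after values were seen and is only described: 17 were positive, with a median of 1.80. Without replicate 4, 12 passed, against 2.69% of all genes. *Vip*, a neuropeptide of pancreatic ganglia, was at 2.54, 3.09 and 1.27 CPM against 13.3, 17.7, 17.0 and 3.01 CPM, and *Prph*, the filament peripherin, at 1.29, 2.24 and 0.823 CPM against 7.4, 11.3, 10.4 and 2.58 CPM. Replicate 4 was inside the virgin range for *Vip* and just above it for *Prph*. Of 8 Schwann cell markers 7 were positive, with a median of 1.19. *Cdh19* and *Sox10*, both of Schwann cells, did not overlap and gave 2.06 (SE 0.55) and 1.52 (SE 0.44).

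Of 31 tested calcium and sodium channel genes 30 were positive, with a median of 0.40, and 0 passed even without replicate 4. Of 68 potassium channel genes 43 were positive and 25 negative, with a median of 0.09. Without replicate 4, 1 passed as higher and 2 as lower, against 2.69% and 0.47% of all genes. Those lower were *Kcnf1*, given above, and *Kcnab3*, a beta subunit named after its values were seen, at 35.9, 33.4 and 32.9 CPM against 22.1, 20.5, 16.4 and 33.4 CPM. *Kcnq5*, a potassium channel of excitable cells, was at 0.139, 0.306 and 0.150 CPM against 1.28, 1.17, 1.29 and 0.736 CPM, without overlap, and was the 1 that passed as higher, with an adjusted p of 0.0254. *Kcnab2*, a channel beta subunit, gave 0.75 (SE 0.23).

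*Atf3*, a stress-induced transcription factor (chr1:191170296-191218039, minus strand), was at 28.5, 31.1 and 32.4 CPM in virgin islets, at 73.4, 89.6 and 85.4 CPM in the first 3 multipara libraries and at 30.7 CPM in replicate 4. The first 3 multipara libraries were alike, and replicate 4 was inside the virgin range. The log2 fold change of 1.19 (SE 0.32) became 1.43 (SE 0.13) without replicate 4, with an adjusted p of 0.00295. Of 15 genes of the integrated stress response, 9 were positive and the median was 0.04. Replicate 4 was below the virgin range for 12 of the 15, against 19.8% of all 16590 genes, and above it for 2. Its median log2 difference from the virgin mean was -0.35, against 0.12 for multipara replicates 1 to 3. *Phgdh*, the first enzyme of serine synthesis, was lower without overlap, at 81.1, 76 and 95.6 CPM against 54.8, 69.6, 48.1 and 65 CPM. *Ddit3*, the factor CHOP, was at 28.6, 26.9 and 32.8 CPM against 25.5, 32.7, 28.5 and 20.5 CPM, with overlap.

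Of 23 genes of the unfolded protein response, 3 were positive, with a median of -0.13 and 0 called with or without replicate 4. Their score was lowest in multipara replicate 3, at 7.78 against 8.44 to 8.77 in the other 6 libraries. *Hspa5*, the chaperone BiP, was at 2849, 2540 and 3756 CPM against 3234, 4037, 1488 and 2509 CPM, and *Dnajb9*, its co-chaperone, was lower in all 4 multipara libraries, by -0.52 (SE 0.25). Among 13 heat shock genes, 5 were positive. *Cryab*, a small heat shock protein, gave 1.2 (SE 0.33) with an adjusted p of 0.0434 without replicate 4, and *Hsph1* gave -0.55 (SE 0.21). Of 21 immediate early genes, 12 were above and 4 below all virgin libraries in multipara replicates 1 to 3, against 14.5% and 9.78% of all genes. Replicate 4 was below the virgin range for 13 of the 21, against 19.8% of all 16590 genes.

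Metabolic genes were close between groups. Of 78 nuclear genes of oxidative phosphorylation 18 were positive, with a median of -0.07, and of 79 ribosomal protein genes 66 were positive, with a median of 0.07, both with 0 called without replicate 4. Over 16 glycolysis genes the median was -0.04 with 5 positive, over 20 genes of insulin signalling -0.04 with 7 positive, and over 21 aminoacyl-tRNA synthetase genes -0.14 with 6 positive, again with 0 called. *Fads2*, a desaturase of polyunsaturated fatty acids, was at 5.11, 7.11 and 6.85 CPM against 31.0, 31.6, 19.1 and 6.76 CPM, and passed without replicate 4, which lay inside the virgin range, with an adjusted p of 0.00476. *Scd1*, the stearoyl-CoA desaturase, was higher in all 4 multipara libraries, by 1.37 (SE 0.45).

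*Pdk4*, the kinase that shuts pyruvate dehydrogenase, and *Ucp2*, an uncoupling protein, did not overlap and gave 0.65 (SE 0.18) and 0.29 (SE 0.12). *Gpx3*, a secreted glutathione peroxidase, was at 365, 361 and 356 CPM against 601, 648, 495 and 397 CPM, without overlap and with an adjusted p of 0.0514 without replicate 4. *Aldoa*, of glycolysis, gave -0.57 (SE 0.23), and *Txnip*, a thioredoxin inhibitor raised by glucose, gave -0.15 (SE 0.18). Of 18 clock genes 1 passed as higher without replicate 4, against 2.69% of all genes. It was the repressor *Nr1d1*, with an adjusted p of 0.0222.

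Of 24 acinar genes, 23 were positive, with a median of 1.04, and 0 passed the test. In multipara replicates 1 to 3, 22 were above all virgin libraries, against 14.5% of all genes. *Amy2a5*, pancreatic amylase, was at 1471, 1653 and 398 CPM against 3839, 3836, 3002 and 881 CPM. *Reg1*, a secreted protein of acinar cells, was at 98.3, 154 and 45.0 CPM against 320, 333, 347 and 103 CPM. For both, replicate 4 was inside the virgin range and virgin replicate 3 the lowest of all. Of the Reg family, 5 members were tested, with a median of 3.67 and 0 called with or without replicate 4. Of 11 duct markers 11 were positive, with a median of 0.58, and 2 passed as higher without replicate 4, against 2.69% of all genes. These were *Krt19* and *Muc1*, with log2 fold changes of 2.21 (SE 0.63) and 1.32 (SE 0.36). Of 5 red cell genes 5 were negative and 0 passed, and *Hbb-bs*, a beta globin, was at 59.3, 307 and 103 CPM against 26.1, 53.2, 73.4 and 54.1 CPM. Its log2 fold change went from -1.6 to -0.65 without virgin replicate 2. Of the adipocyte and mesothelial markers, 1 of 6 and 1 of 5 were tested.

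**Figure D4:**
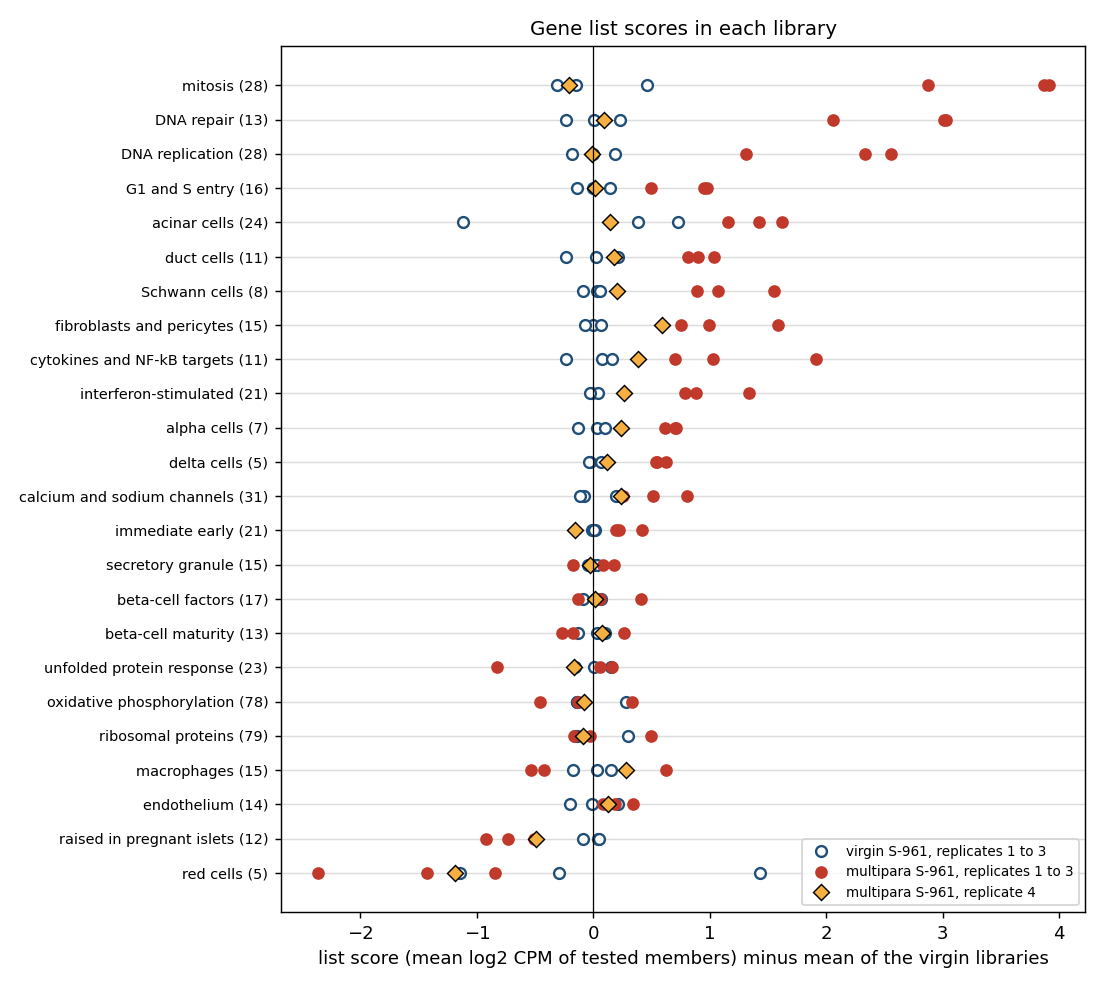
Mean log2 CPM of the tested members of 24 gene lists (rows, number of genes in brackets) in each library, minus the mean of the virgin libraries (x axis, log2 units), for virgin replicates 1 to 3 (open circles), multipara replicates 1 to 3 (filled circles) and multipara replicate 4 (diamonds). Replicate 4 lies at the virgin libraries for mitosis, repair and replication and beyond them for fibroblasts and pericytes, cytokines, interferon-stimulated genes and genes raised in pregnant islets.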

How the data were processed

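Libraries were grouped by the labels of the authors. RNA was extracted with Trizol and poly(A) RNA was made into strand-specific libraries. The authors deposited 1 table per library of expected counts per gene, not normalized. STAR, RSEM, GRCm38 and mm10 are named in the submitters' processing notes, without versions. RSEM divides reads shared between genes, so that near-identical genes are uncertain. All 55536 genes matched GENCODE M21 (GRCm38), which gave the coordinates.

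Expected counts were rounded to whole counts and tested with edgeR 4.0.16 (TMM, filterByExpr with a minimum count of 10 and a total of 15, quasi-likelihood F-test) in R 4.3.3, with Benjamini-Hochberg adjustment over all genes tested (threshold 0.05). The fitted biological coefficient of variation was 0.281, so that spread between libraries rather than depth limited the precision of all but low genes. DESeq2 1.42.0 was an alternative. CPM used the TMM-scaled library size, except where values stand beside untreated libraries, which used the plain library size. The score of a list averages log2 CPM (prior count 2) over its tested members. No set was tested. Scripts were tested on simulated data.

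The members and the 51 gene lists were chosen with earlier results of these data known, and 2 of the lists (neurons, collagens) after values were seen. Named genes were, first, the 12 highest and 12 lowest fold changes among genes whose groups did not overlap and whose mean log2 CPM reached 2, leaving out predicted and clone symbols. The rule added, for every list, the most abundant member and the 2 with the smallest unadjusted p, and a set of islet, cell cycle and stress genes. Other genes are marked as chosen after their values were seen. The alternatives were other scalings, filters, DESeq2, robust dispersions, all 11 libraries in the fit, a replicate block, an acinar covariate and leaving out each library. Untreated libraries were used only as levels. Some genes covered by the rule are not reported here.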

Additional observations from a re-analysis of the deposited data

Results flagged for a closer look

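Among the 4 multipara S-961 libraries, 1 library was far from the other 3, relative to the range of the group on the log2 CPM scale, for 9 of 88 genes and 0 of 51 list scores checked. About 1 in 20 such groups would be picked out without any cause. Replicate 4 was the low library in 6 of the 9. The gap as a share of the range was 0.893 for *Bub1*, 0.884 for *Cplx1*, 0.837 for *Vip*, 0.857 for *Cryab*, 0.833 for *Amy2a5* and 0.933 for *Reg1*. Replicate 3 was the high library for *Slc2a2* at 0.909 and *Icam1* at 0.848, and replicate 2 for *Isg15* at 0.876. The virgin group of 3 was not checked in this way.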

How the results depend on the processing

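The count of calls depended on replicate 4 and on the test. Leaving out 1 library at a time, genes called higher ran from 0 to 447 and genes called lower from 0 to 78, with the highest values without multipara replicate 4; without virgin replicate 3, 1 gene was called higher, Igkc, an immunoglobulin chain named after it was seen. DESeq2 called 358 higher and 11 lower, and the cause of its difference from edgeR was not tested. Genes whose groups did not overlap went from 908 to 2429 (above) and from 555 to 1641 (below) without multipara replicate 4, an alternative added after the data were seen, in which fewer libraries are compared. The other scalings, filters, robust dispersions, all 11 libraries and the acinar covariate called 0 genes in each direction. Replicate numbers were not shown to pair the libraries, since deviations of same-numbered libraries correlated at 0.13, -0.0015 and 0.083. A fit with a replicate block, in which replicate 4 has no virgin partner and adds no information, called 309 higher and 33 lower.

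Of the 88 genes checked, 34 passed in the DESeq2 fit of all 7 libraries, and 9 had a sign change in 1 or more of the 16 alternatives. With the acinar covariate the log2 fold change became 0.0688 for *Ins1*, 0.0386 for *Iapp*, -0.0127 for *Pdx1*, -0.0645 for *Slc2a2*, 0.0324 for *Ucn3*, -0.197 for *Prlr* and -0.0696 for *Amy2a5*. With total counts only it became 0.0121 for *Ucn3*. Leaving out 1 library at a time gave -0.0233 to 0.177 for *Rgs5*, -0.263 to 0.0683 for *Iapp*, -0.187 to 0.221 for *Slc2a2*, -0.138 to 0.0329 for *Ucn3* and -0.337 to 0.0988 for *Hspa5*. Of the 52 list medians, 14 moved by more than the spread between libraries with the acinar covariate.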
